A study of Mus musculus with 12 samples.

Results

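Hearts of mice given angiotensin II (AngII) were compared with hearts of sham-operated mice while both received gastrodin at 5 mg/kg/day. The comparison rests on 4 of the 12 libraries of the series, taken by their column names in the deposited count matrix: AngII 5 mg, numbers 3 and 4, and sham 5 mg, numbers 9 and 10. All mice were wild type C57BL/6 at postnatal day 45, and gastrodin, a glucoside from the orchid Gastrodia elata, was given by the gastric route for 7 days. The AngII mice are the model of cardiac hypertrophy and the sham mice its operated controls, and the other 8 libraries are the same arms with vehicle or with 50 mg/kg/day. The labels used here give neither sex nor AngII dose, and do not tie libraries to animals, so a p-value reflects spread between libraries that may be technical.

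AngII is the effector peptide of the renin-angiotensin system. Through its type 1 receptor it constricts vessels and drives cardiomyocyte growth, and in the ventricle sustained load is classically accompanied by re-expression of a fetal gene programme that includes the natriuretic peptides Nppa and Nppb, the skeletal actin Acta1 and the slow myosin Myh7. Fibroblasts deposit collagen in the same setting, and the endoplasmic reticulum of stressed cells induces chaperones through the unfolded protein response. The title of the series names insulin-like growth factor 2 and its receptor, and the comparison asks how AngII and sham hearts differ when both are on the lower dose of the drug.

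Libraries held 63.5 to 78.6 M counts (M for 1000000). Mitochondrial genes took 63.1 to 74.5% of them, 7 nuclear genes that copy mitochondrial sequence 15.9 to 19.5%, and the other nuclear genes without ribosomal RNA 6.34 to 20.3%. In the 4 libraries used here that nuclear share was 20.3% in AngII number 3, 7.49% in AngII number 4, 6.34% in sham number 9 and 8.17% in sham number 10, so AngII number 3 had the highest share of the 12 and its partner did not. This left 15.2, 5.4, 4.49 and 5.19 M nuclear counts in the same order, and 19761, 17000, 15319 and 16629 genes with at least 1 count. Ribosomal RNA took 10.8% of counts in sham 50 mg number 12, 0.959% in sham 5 mg number 10 and less in every other library. Levels below are in CPM, counts scaled to a library of 1000000 counts whose size was adjusted by the trimmed mean of M-values (TMM). The defining heart muscle markers were present, with 12 of 12 cardiomyocyte markers counted and a summed level of 9738 and 6380 CPM in AngII against 6885 and 5865 CPM in sham.

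**Figure D1:**
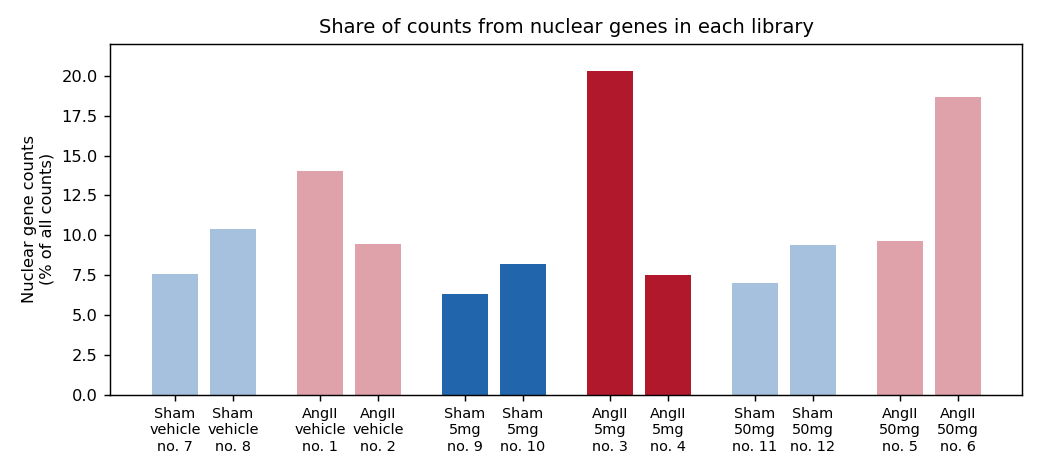
Bars give the share of all counts that fell on nuclear genes, without ribosomal RNA and copies of mitochondrial sequence, in percent, for each of the 12 libraries (red AngII, blue sham; full colour 5 mg/kg/day). AngII 5 mg number 3 stands at 20.3%, while AngII number 4 at 7.49% sits among the sham libraries.

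No gene of 16723 tested passed an adjusted p of 0.05 with edgeR's quasi-likelihood test, so percent called was 0% higher and 0% lower. At an unadjusted p under 0.05 there were 2004 genes, of which 1432 (8.56%) lay higher in AngII and 572 (3.42%) lower. In 3639 genes (21.8%) both AngII libraries lay above both sham libraries, and in 2805 (16.8%) both lay below. The DESeq2 Wald test called 277 genes, 211 higher and 66 lower, and limma-voom called 0. Leaving out AngII number 4 gave 1187 calls with edgeR (767 higher, 420 lower) and leaving out AngII number 3 gave 0. Removing AngII vehicle number 1 or number 2, which are in neither group but enter the estimate of spread and the filter on low counts, gave 6 calls each (18059 and 18166 genes tested), and removing sham 5 mg number 10 gave 2.

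The AngII libraries differed from each other more than the sham libraries did. Over 7764 genes on the log2 CPM scale, AngII number 4 had a Pearson correlation of 0.809 with AngII number 3. With sham numbers 9 and 10 AngII number 4 had 0.917 and 0.934, and AngII number 3 had 0.73 and 0.773. The sham libraries had 0.917 with each other, so AngII number 4 was closer to sham than to its partner. Across 7766 genes with a mean of at least 1 on the log2 CPM scale, the median absolute log2 difference was 0.626 between the AngII libraries, 0.334 between the sham libraries and 0.444 between the group means. Where the groups did not overlap, AngII number 3 lay a median of 1.02 (log2) above the sham mean in 1708 higher genes and AngII number 4 lay 0.47 above it. In the 1609 lower genes the distances were -0.88 and -0.35. The part of the nuclear share in these distances was not tested. For many lists below, values without AngII number 3 or number 4 are given. For single genes such values are mostly left out, and nothing follows from their absence. Counts of list members are to be read against all genes in the same fit. With all 12 libraries 8.56% of genes were higher and 3.42% lower at an unadjusted p under 0.05. Without overlap 21.8% lay higher and 16.8% lower. At an unadjusted p under 0.05, 2.44% of genes lay higher and 1.72% lower without AngII number 3, 12.8% and 9.93% without AngII number 4, and 3.34% and 2.02% with the nuclear share as a covariate. TPM, which does not use TMM, scales counts by transcript length and to the same total in every library. On log2(TPM + 1), tested with limma-trend, 8.44% lay higher and 0.126% lower, and the median over all genes was 0.32 in place of 0.09. Because no gene passed, the genes below are described as lying higher or lower, with their adjusted p from edgeR.

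**Figure D2:**
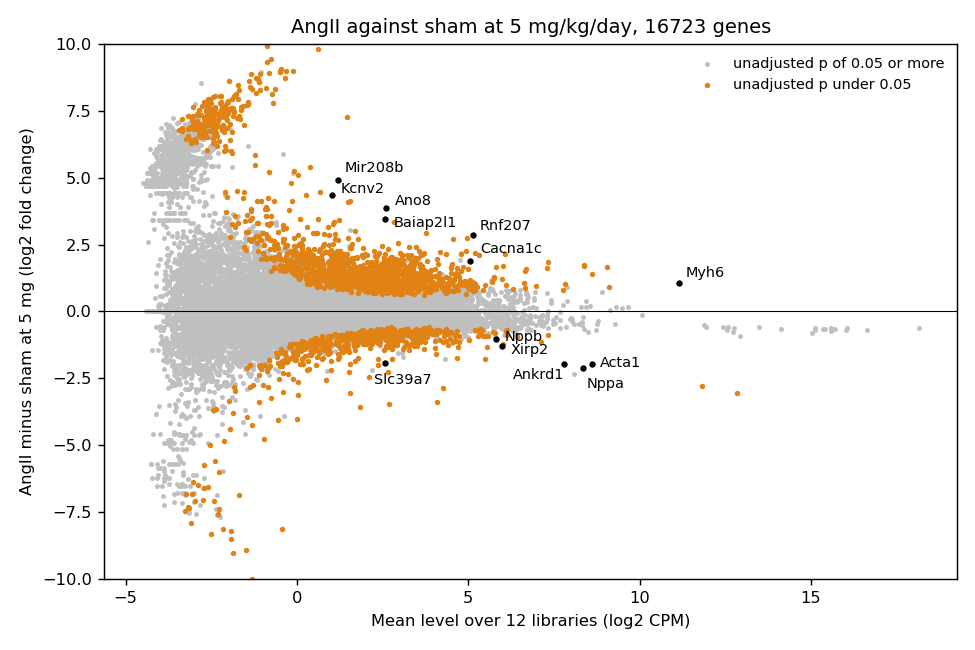
Each point is 1 of 16723 genes, with its mean level over 12 libraries (log2 CPM) on the x axis and the AngII minus sham difference at 5 mg/kg/day (log2 fold change) on the y axis, and orange marks an unadjusted p under 0.05. The stress genes Nppa, Ankrd1, Acta1 and Xirp2 lie below 0 and Mir208b, Kcnv2, Ano8 and Baiap2l1 above it; 4 genes lie outside the plotted range of 10 on either side.

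The genes of the fetal and hypertrophy programme lay mostly lower in AngII, not higher. Of 18 tested members of 20 listed, 9 lay below both sham libraries and 2 above, beside 16.8% and 21.8% of all genes. At an unadjusted p under 0.05, 7 were lower and 2 higher, beside 3.42% and 8.56%. The median log2 fold change was -0.41 against 0.09 over all genes tested. Nppa, which encodes atrial natriuretic peptide, stood at 96.6 and 125 CPM in AngII and 436 and 518 CPM in sham (log2 fold change -2.11 ± 0.43 SE, adjusted p = 0.236). Nppb, the precursor of B-type natriuretic peptide, stood at 31.1 and 30.5 against 62.5 and 64.9 CPM (-1.05 ± 0.33, adjusted p = 0.293). Atrial markers, 8 of 9 of which were counted, summed to 113 and 139 CPM in AngII and 444 and 526 CPM in sham, but Nppa is one of them and made up most of that sum. Of the 8 tested 3 were higher and 1 lower at an unadjusted p under 0.05, beside 8.56% and 3.42% of all genes. Their median was 0.50, and Bmp10 was not in the count matrix. The part of atrial tissue in the difference of Nppa was not tested. For both peptides the 2 AngII libraries lay together and well below the 2 sham libraries.

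Acta1, the skeletal alpha-actin, stood at 148 and 186 CPM in AngII and 853 and 462 CPM in sham (-1.98 ± 0.44, adjusted p = 0.251). Ankrd1, a stretch-responsive partner of titin, stood at 53.7 and 132 against 398 and 332 CPM (-1.97 ± 0.43, adjusted p = 0.251). Xirp2, an actin-binding protein of the intercalated disc, stood at 38.2 and 32.5 against 95.9 and 78.5 CPM (-1.30 ± 0.27, adjusted p = 0.245). The groups did not overlap for any of these 3 genes, and AngII number 4 was the closer of the 2 AngII libraries to sham for Acta1 and Ankrd1 but not for Xirp2. Synpo2l and Fhl1, picked after their values were seen, lay lower in the same way, by -1.27 ± 0.33 and -1.43 ± 0.43. Skeletal muscle markers, 7 of 10 of which were counted, summed to 600.0 and 494.6 against 1221 and 763.7 CPM, nearly all of it Acta1 and Ckm, which the heart expresses too. Myh2 and Myh4 had no count, and Myh1 was not in the count matrix. The fetal list kept its direction without AngII number 3 (8 lower and 0 higher at an unadjusted p under 0.05, median -0.47) and without AngII number 4 (7 lower and 3 higher, median -0.54), and with the nuclear share as a covariate 7 were lower and 1 higher. On log2(TPM + 1) it had 3 lower and 2 higher members, and its median turned to 0.25, beside 0.32 over all genes.

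**Figure D3:**
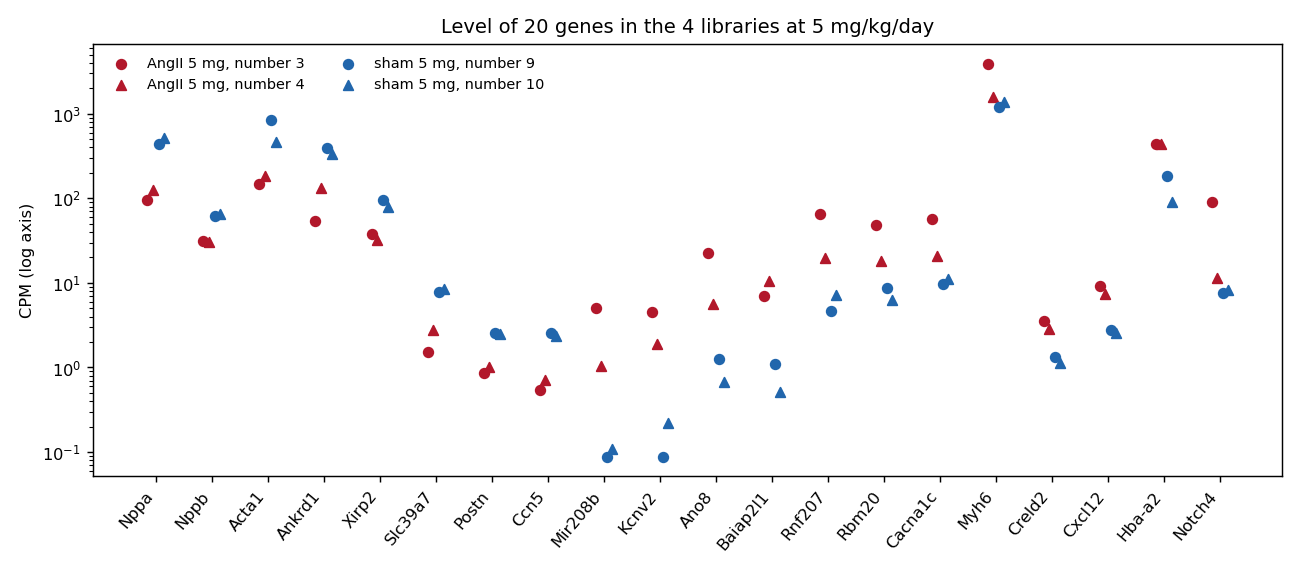
The level of 20 genes (CPM, log axis) in the 4 libraries at 5 mg/kg/day, red for AngII and blue for sham, with a circle and a triangle for the libraries of each group. Nppa and Nppb lie lower in both AngII libraries, and for Notch4 or Rnf207 AngII number 3 lies far above AngII number 4.

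The promoters of Acta1, Ankrd1 and Nppb are shown because the genes lay lower together and each holds a match to the muscle CAT (MCAT) element, the site of TEAD factors. The sequences are from RefSeq on GRCm38.p6 and run from 250 bases before the gene start to 50 after it. They lie at chr8:123894726-123895025 on the minus strand (Acta1), chr19:36119795-36120094 on the minus strand (Ankrd1) and chr4:147985650-147985949 on the plus strand (Nppb). Capitals mark MCAT matches (CATTCC on either strand) and, in Acta1 alone of the 3, 1 match to the serum response factor CArG box, which starts before the MCAT match.
Acta1 promoter: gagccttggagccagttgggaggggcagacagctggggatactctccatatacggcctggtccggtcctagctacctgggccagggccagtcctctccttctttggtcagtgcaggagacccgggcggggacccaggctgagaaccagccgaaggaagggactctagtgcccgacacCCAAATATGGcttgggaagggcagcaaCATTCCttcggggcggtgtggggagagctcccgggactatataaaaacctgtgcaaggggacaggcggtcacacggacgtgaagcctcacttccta
Ankrd1 promoter: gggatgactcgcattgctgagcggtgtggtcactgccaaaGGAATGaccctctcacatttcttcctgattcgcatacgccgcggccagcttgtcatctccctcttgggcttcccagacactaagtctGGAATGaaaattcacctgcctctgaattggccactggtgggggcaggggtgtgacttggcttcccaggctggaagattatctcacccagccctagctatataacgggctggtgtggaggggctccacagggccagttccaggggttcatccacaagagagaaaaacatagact
Nppb promoter: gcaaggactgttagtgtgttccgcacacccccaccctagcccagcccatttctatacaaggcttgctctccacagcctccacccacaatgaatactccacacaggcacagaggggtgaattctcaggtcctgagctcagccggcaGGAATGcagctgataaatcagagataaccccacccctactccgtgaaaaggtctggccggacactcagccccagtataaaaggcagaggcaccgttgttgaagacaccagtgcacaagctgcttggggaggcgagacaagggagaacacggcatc
MCAT was found in 5 of 17 promoters of the list (29.4%) and in 14.6% of 27025 promoters of the same length, and the CArG box in 3 of 17 (17.6%) and 1.57%. Myh7, which lay higher in AngII (0.95), and Hspb7 held the other MCAT matches of the list. The promoter of Nppa held neither set of letters in this window. A match is a description of letters and not a measured site.

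The myosins and their microRNA locus Mir208b lay on the other side, higher in AngII. Myh6, the fast adult alpha-myosin, stood at 3912 and 1559 CPM in AngII and 1215 and 1395 CPM in sham (1.07 ± 0.48, adjusted p = 0.402), and Myh7, the slow beta-myosin, at 211 and 120 against 83.0 and 88.2 CPM (0.95 ± 0.41, adjusted p = 0.393). Both AngII libraries exceeded both sham libraries for each gene, with most of the distance in AngII number 3. Myh7b, the ancient relative that hosts miR-499, stood at 167 and 76.7 against 28.7 and 52.5 CPM (1.59 ± 0.45, adjusted p = 0.270). Myh7 overlaps the antisense transcript Mhrt, and the strand used in counting is not given, so reads of the pair cannot be told apart.

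Mir208b, the host transcript region of miR-208b inside Myh7, had the smallest p among named genes. Its counts were 748 and 58 in AngII and 4 and 6 in sham, or 5.03 and 1.04 against 0.0886 and 0.109 CPM (4.92 ± 0.76, adjusted p = 0.166). The groups did not overlap, and AngII number 3 held most of the counts. The libraries were made with a TruSeq RNA kit and not a small RNA kit, so these counts come from longer transcripts over the locus at chr14:54975700-54975776. Mir208a, inside Myh6, had 14, 0, 0 and 1 counts in the same order of libraries, and Mir499 had 0 in all. The mature sequences, from RefSeq on GRCm38.p6, are shown because the 3 microRNAs of myosin genes share most of their seed. Capitals mark the seed, bases 2 to 8, which is UAAGACG in both miR-208 members and UAAGACU in miR-499-5p.
miR-208b-3p: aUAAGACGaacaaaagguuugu
miR-208a-3p: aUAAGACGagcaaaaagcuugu
miR-499-5p: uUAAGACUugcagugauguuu
The loci are chr14:54975710-54975731 and chr14:54949072-54949093 on the minus strand and chr2:155622893-155622913 on the plus strand.

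Genes of calcium handling and ion channels lay mostly higher in AngII. Of 28 members, 18 lay above both sham libraries and 3 below, beside 21.8% and 16.8% of all genes. At an unadjusted p under 0.05, 11 were higher and 1 lower, beside 8.56% and 3.42%, and the median was 0.78. Cacna1c, the pore of the L-type calcium channel, stood at 56.2 and 20.8 CPM in AngII and 9.79 and 11 CPM in sham (1.89 ± 0.46, adjusted p = 0.255). Kcnv2, a modulatory potassium channel subunit, stood at 4.58 and 1.87 against 0.0886 and 0.218 CPM (4.36 ± 0.83, adjusted p = 0.236). Atp2a2, the calcium pump of the sarcoplasmic reticulum, stood at 253 and 233 against 157 and 124 CPM (0.79 ± 0.29, adjusted p = 0.335).

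Atp2a2 was as high in AngII number 4 as in number 3, whereas Cacna1c lay nearer to sham in number 4. Trdn, which anchors calsequestrin to the release channel, was the lone member lower at an unadjusted p under 0.05, at 46.8 and 53.3 against 96.4 and 88.1 CPM (-0.88 ± 0.32, adjusted p = 0.331). Rnf207, a ubiquitin ligase that regulates a potassium channel, lay higher with the channels, at 65.1 and 19.9 against 4.72 and 7.17 CPM (2.84 ± 0.52, adjusted p = 0.236). Without AngII number 3 the list had 3 higher and 0 lower members and a median of 0.33, and with the nuclear share as a covariate 5 higher, 1 lower and a median of 0.55.

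Receptors and processing enzymes of the renin-angiotensin and natriuretic system lay higher or overlapped, while their cardiac peptides lay lower. Of 20 tested members of 24 listed, 10 lay above both sham libraries and 0 below, beside 21.8% and 16.8% of all genes. At an unadjusted p under 0.05, 6 were higher and 0 lower, beside 8.56% and 3.42%, and the median was 0.71. Npr1, the guanylyl cyclase receptor of both natriuretic peptides, stood at 19.8 and 6.34 CPM in AngII and 1.93 and 4.79 CPM in sham (1.96 ± 0.57, adjusted p = 0.282). Anpep, an aminopeptidase that trims angiotensin III, stood at 2.00 and 1.58 against 0.532 and 0.436 CPM (1.89 ± 0.57, adjusted p = 0.282). Furin, a proprotein convertase that can cleave the Nppb product, lay higher by 1.25 ± 0.42. Agtr1a, the type 1 receptor of AngII, overlapped between groups at 1.01 and 1.28 against 1.88 and 0.763 CPM, as did Ace at 12.9 and 7.54 against 4.47 and 8.39 CPM. The list had 2 higher and 1 lower members without AngII number 3.

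The structural collagens did not separate the groups at this dose. Col1a1 stood at 11 and 8.44 CPM in AngII and 9.28 and 12 CPM in sham (-0.13 ± 0.45, adjusted p = 0.940), and Col3a1 at 21.5 and 22.7 against 21.3 and 39.3 CPM (-0.46 ± 0.40, adjusted p = 0.647). Of 40 collagens and matrix genes, 4 lay above both sham libraries and 6 below, beside 21.8% and 16.8% of all genes. At an unadjusted p under 0.05, 2 were higher and 3 lower, beside 8.56% and 3.42%, and the median was 0.08. Bgn, the proteoglycan biglycan, was among the lower ones at 23.4 and 38.5 against 58.0 and 58.6 CPM (-0.92 ± 0.32, adjusted p = 0.319).

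In the count fit, matricellular and profibrotic genes lay lower more often than higher. Of 34 tested members of 35 listed, 12 lay below both sham libraries and 4 above, beside 16.8% and 21.8% of all genes. At an unadjusted p under 0.05, 10 were lower and 2 higher, beside 3.42% and 8.56%, and the median was -0.14. Ccn5, a matricellular protein of the CCN family, stood at 0.544 and 0.702 CPM in AngII and 2.59 and 2.38 CPM in sham (-2.0 ± 0.50, adjusted p = 0.255). Tgfb3, a transforming growth factor beta isoform, stood at 3.94 and 5.56 against 10.6 and 10.1 CPM (-1.13 ± 0.31, adjusted p = 0.261). Postn, the periostin of activated fibroblasts, stood at 0.853 and 1.01 against 2.55 and 2.47 CPM (-1.43 ± 0.49, adjusted p = 0.306). In all 3 the libraries of each group lay close together and apart from the other group. Meox1, a transcription factor of activated fibroblasts, lay lower by -1.20 ± 0.38 and the protease inhibitor Timp1 by -1.92 ± 0.72, both picked after their values were seen.

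Serpinh1, the collagen chaperone, lay higher against this direction, at 31 and 20.5 against 13.2 and 14.7 CPM (0.89 ± 0.33, adjusted p = 0.338). The profibrotic list had 7 lower and 0 higher members without AngII number 3, where its median was -0.70, and 9 lower and 6 higher without AngII number 4, where 9.93% and 12.8% of all genes passed. With the nuclear share as a covariate 5 were lower and 0 higher, with a median of -0.70. On log2(TPM + 1) the direction was not seen, with 0 of 32 lower, 1 higher and a median of 0.20, beside 0.32 over all genes. Fibroblast markers, all 12 of which were counted, summed to 217 and 340 CPM in AngII and 221 and 330 CPM in sham, so the groups overlapped. In RNA of whole hearts, fewer cells of a type and less RNA per cell cannot be told apart.

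Of the insulin-like growth factor axis, the receptors Igf2r and Igf1r lay higher and the ligand Igf2 did not separate the groups. Of the 18 members of the axis, 7 lay above both sham libraries and 2 below, beside 21.8% and 16.8% of all genes. Igf2 stood at 3.93 and 8.15 CPM in AngII and 3.23 and 4.41 CPM in sham (0.65 ± 0.68, adjusted p = 0.715), so the groups overlapped. Igf2r, the mannose-6-phosphate receptor that clears the ligand, stood at 11 and 5.53 against 2.70 and 5.27 CPM (1.05 ± 0.41, adjusted p = 0.355), with AngII number 4 just above sham number 10. Igf1r, the signalling receptor, stood at 4.11 and 1.62 against 0.797 and 1.24 CPM (1.5 ± 0.56, adjusted p = 0.345). Of 18 members 4 were higher and 0 lower at an unadjusted p under 0.05, beside 8.56% and 3.42% of all genes. The other 2 were the binding proteins Igfbp3 and Igfbp5, and the median of the list was 0.65. The count fell to 1 higher without AngII number 3, and the median to 0.05 without AngII number 4. Igf2 shares exon bases with Gm49394 on the same strand, so its level is uncertain.

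Genes of the unfolded protein response lay higher in both AngII libraries. Of 25 tested members of 26 listed, 11 lay above both sham libraries and 0 below, beside 21.8% and 16.8% of all genes. At an unadjusted p under 0.05, 8 were higher and 0 lower, beside 8.56% and 3.42%, and the median was 0.47. Creld2, a secreted chaperone induced by reticulum stress, stood at 3.51 and 2.88 CPM in AngII and 1.33 and 1.13 CPM in sham (1.38 ± 0.39, adjusted p = 0.270). Herpud1, a part of reticulum-associated degradation, stood at 9.19 and 10.6 against 5.43 and 4.92 CPM (0.93 ± 0.28, adjusted p = 0.282). Hsp90b1, the reticulum chaperone GRP94, stood at 27.2 and 28.2 against 16.1 and 16.7 CPM (0.76 ± 0.26, adjusted p = 0.311).

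In these 3 genes the AngII libraries were nearly level with each other despite their different nuclear shares. Pdia4 and Dnajb11, a disulfide isomerase and a co-chaperone of the same compartment, lay higher by 1.09 ± 0.40 and 0.90 ± 0.37. Hspa5, the central chaperone BiP, overlapped at 17.0 and 46.5 against 17.7 and 24.2 CPM (0.60 ± 0.44, adjusted p = 0.578), and without AngII number 4 its difference was -0.30. The list had 7 higher and 0 lower members without AngII number 3, 6 and 0 without AngII number 4, and 7 and 0 with the nuclear share as a covariate. Of 23 cytosolic heat shock genes 0 were higher and 3 lower, beside 8.56% and 3.42% of all genes. Their median was -0.01, and 0.05 without AngII number 4, and the difference between the 2 lists was not tested. The small heat shock protein Hspb6 was among the lower ones, at 34.5 and 45.4 against 91.2 and 93.4 CPM (-1.21 ± 0.37, adjusted p = 0.284).

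The promoters of Creld2 and Hsp90b1 are shown because in both genes the 2 libraries of each group lay close together and apart from the other group, and each holds the endoplasmic reticulum stress element (ERSE), the site used by ATF6 with NF-Y. The sequences are from RefSeq on GRCm38.p6 at chr15:88819396-88819695 on the plus strand and chr10:86705395-86705694 on the minus strand. Capitals mark matches to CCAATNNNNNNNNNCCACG on either strand.
Creld2 promoter: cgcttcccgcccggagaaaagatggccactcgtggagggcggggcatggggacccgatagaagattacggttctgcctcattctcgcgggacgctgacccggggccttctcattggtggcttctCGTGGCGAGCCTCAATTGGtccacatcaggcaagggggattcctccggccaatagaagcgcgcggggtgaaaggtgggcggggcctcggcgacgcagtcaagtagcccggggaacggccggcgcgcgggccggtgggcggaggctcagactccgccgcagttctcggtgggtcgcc
Hsp90b1 promoter: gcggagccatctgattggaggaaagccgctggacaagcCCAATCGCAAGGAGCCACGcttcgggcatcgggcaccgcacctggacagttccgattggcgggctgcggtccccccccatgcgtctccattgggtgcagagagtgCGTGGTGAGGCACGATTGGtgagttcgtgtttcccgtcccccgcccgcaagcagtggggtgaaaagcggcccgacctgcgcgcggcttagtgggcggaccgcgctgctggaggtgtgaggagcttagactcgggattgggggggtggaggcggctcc
Hsp90b1 held 2 matches and Creld2 held 1. The element was found in 8 of 23 promoters of the list (34.8%) and in 35 of 27025 promoters (0.13%). Hspa5, whose groups overlapped, held a match and Herpud1, whose groups did not, held none in this window.

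Red cell genes lay higher in AngII. Of 9 tested members of 10 listed, 6 lay above both sham libraries and 0 below, beside 21.8% and 16.8% of all genes. At an unadjusted p under 0.05, 6 were higher and 0 lower, beside 8.56% and 3.42%, and the median was 1.67. Hba-a2, an alpha-globin, stood at 441 and 440 CPM in AngII and 182 and 91.2 CPM in sham (1.69 ± 0.44, adjusted p = 0.255), and Alas2, the erythroid enzyme of haem synthesis, at 12.2 and 14.8 against 6.18 and 2.32 CPM (1.67 ± 0.47, adjusted p = 0.270). The summed level of the list was 1556 and 2118 CPM against 766.5 and 365.7 CPM. Counts were 6 higher and 0 lower without AngII number 3, 5 and 0 without AngII number 4, and 6 and 0 with the nuclear share as a covariate. Blood content of the tissue was not recorded in the sources used here, and its part in these values was not tested.

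Vessel genes lay higher mainly in AngII number 3. Of 14 endothelial markers, 8 were higher and 0 lower at an unadjusted p under 0.05, beside 8.56% and 3.42% of all genes. The median was 0.98, but 5 lay above both sham libraries, beside 21.8% of all genes. Their summed level was 502 and 311 CPM in AngII and 282 and 300 CPM in sham. Esam, an adhesion protein of the endothelial junction, stood at 24.1 and 11.1 against 5.87 and 7.28 CPM (1.42 ± 0.44, adjusted p = 0.288). Notch4, an endothelial Notch receptor, stood at 91.4 and 11.5 against 7.53 and 8.21 CPM (2.71 ± 0.71, adjusted p = 0.255), and Dll4, its ligand, at 15.3 and 3.87 against 2.79 and 3.43 CPM (1.62 ± 0.52, adjusted p = 0.293). Of 19 genes of the Notch pathway 7 were higher and 0 lower, with a median of 0.85. Without AngII number 3 neither list had a member at an unadjusted p under 0.05 in either direction, the medians being 0.19 for both, and the same counts of 0 held with the nuclear share as a covariate, where few of all genes passed either (2.44% higher without AngII number 3 and 3.34% with the covariate).

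Cxcl12, a chemokine of stromal and endothelial cells, separated the groups more evenly, at 9.14 and 7.43 against 2.79 and 2.56 CPM (1.63 ± 0.36, adjusted p = 0.251). Macrophage markers overlapped, with a summed level of 48.7 and 131 CPM in AngII and 97.7 and 127 CPM in sham and 0 of 14 higher and 1 lower at an unadjusted p under 0.05. Hepatocyte genes, foreign to the heart, summed to 21.2 and 83.5 against 3.90 and 60.2 CPM and also overlapped. Of other tissues, 7 of 9 lung markers were counted, with sums of 2.22 and 4.37 against 1.99 and 2.76 CPM, 8 of 11 adipocyte markers with 7.61 and 9.20 against 4.36 and 6.85 CPM, and 4 of 8 neutrophil markers with 1.11 and 0.522 against 1.46 and 0.617 CPM. Of these lists the defining markers Sftpc of lung, Adipoq of fat and Ly6g of neutrophils had no count in any of the 4 libraries, and 0 tested members passed an unadjusted p under 0.05 in either direction.

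**Figure D4:**
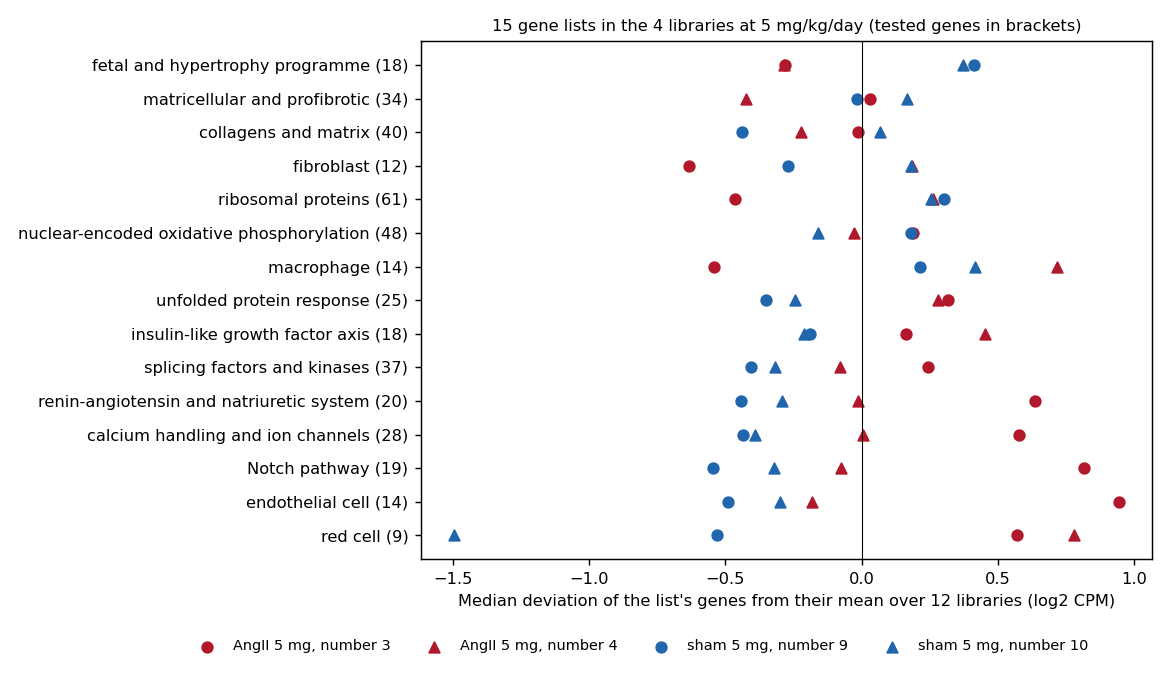
Each symbol is the median deviation of a list's genes from their own mean over 12 libraries (log2 CPM), for 15 lists in the 4 libraries at 5 mg/kg/day. For the unfolded protein response, red cell and fetal lists both AngII libraries (red) lie on one side of both sham libraries (blue), and for the endothelial and Notch lists AngII number 3 lies far from the other 3.

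Splicing factors and their kinases lay higher, with a median of 0.52. At an unadjusted p under 0.05, 10 of 37 were higher and 1 lower, beside 8.56% and 3.42% of all genes. Rbm20, the splicing regulator of titin, stood at 48.8 and 18.0 CPM in AngII and 8.59 and 6.36 CPM in sham (2.16 ± 0.43, adjusted p = 0.236), and Clk4, a kinase of splicing factors, at 13.8 and 7.06 against 2.68 and 3.92 CPM (1.66 ± 0.42, adjusted p = 0.255). Without AngII number 3 the list had 4 higher and 1 lower members. Malat1, a noncoding RNA kept in the nucleus, stood at 288 and 285 against 110 and 173 CPM (1.02 ± 0.37, adjusted p = 0.338), level in both AngII libraries.

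With both AngII libraries in the fit, the counts of the metabolic lists are to be read beside 8.56% of all genes higher and 3.42% lower. Of 48 nuclear genes of oxidative phosphorylation 2 were higher and 1 lower at an unadjusted p under 0.05, with a median of 0.04, and of 35 genes of fatty acid uptake and oxidation 3 were higher and 0 lower, with a median of -0.02. Of 27 genes of glycolysis and glucose use 4 were higher and 1 lower, with a median of -0.13. Without AngII number 4 the counts were 11 higher and 7 lower for oxidative phosphorylation, 4 and 8 for fatty acids and 7 and 8 for glycolysis, where 12.8% of all genes were higher and 9.93% lower. Slc27a1, a fatty acid transporter, stood at 30.9 and 15.9 CPM in AngII and 8.81 and 5.05 CPM in sham (1.76 ± 0.46, adjusted p = 0.255), and Slc2a4, the insulin-responsive glucose transporter, at 46.5 and 25.9 against 16.7 and 19.6 CPM (1.00 ± 0.32, adjusted p = 0.293). The 61 ribosomal protein genes, which have many processed pseudogenes, had 0 members at an unadjusted p under 0.05 in either direction and a median of -0.36, which was 0.00 without AngII number 3 and -0.73 without AngII number 4. All 15 mitochondrially encoded genes had a negative log2 fold change, with a median of -0.64, and 0 passed an unadjusted p under 0.05. Their median was -0.06 without AngII number 3 and -1.69 without AngII number 4. With the nuclear share as a covariate it was -0.02. That share falls where the mitochondrial share of the same counts rises, so the covariate removes much of this difference by construction, and nothing is concluded from that value.

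Outside the lists and leaving out predicted genes, the smallest p-values belonged to Ano8, Flcn, Ybx2 and Baiap2l1 on the higher side and to Slc39a7 on the lower side. Ano8, a membrane protein that tethers the reticulum to the plasma membrane, stood at 22.7 and 5.62 CPM in AngII and 1.26 and 0.672 CPM in sham (3.88 ± 0.63, adjusted p = 0.194). Flcn, the folliculin of nutrient signalling, stood at 19.5 and 10.6 against 4.10 and 4.18 CPM (1.86 ± 0.32, adjusted p = 0.205). Slc39a7, which releases zinc from the reticulum and Golgi, stood at 1.51 and 2.77 against 7.71 and 8.52 CPM (-1.93 ± 0.37, adjusted p = 0.236). The absence of overlap in these genes was a condition of the ranking and not a result. Ano8 overlaps Dda1 on the opposite strand and Slc39a7 overlaps Gm20427 on the same strand, so their levels are uncertain.

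The AngII minus sham difference at 5 mg was set against the same difference in vehicle and at 50 mg/kg/day, which use other libraries. Across the 7766 genes the log2 fold changes at 5 mg and in vehicle had a Pearson r of 0.726 and the same sign in 79.4%, and those at 5 and 50 mg an r of 0.669 and 76.3%. Genes are not independent replicates, so these are descriptions. In vehicle the nuclear share of counts was 14 and 9.47% in AngII and 7.56 and 10.4% in sham. At 50 mg it was 9.66 and 18.7% in AngII and 7.01 and 9.36% in sham. The part of the nuclear share in the agreement between doses was not tested. Nppa lay lower in all 3 (-1.38 in vehicle, -2.11 at 5 mg and -1.20 at 50 mg), as did Ankrd1 (-1.78, -1.97 and -1.28), and Cacna1c (2.12, 1.89 and 3.89) and Mir208b (4.66, 4.92 and 6.47) lay higher in all 3. The fetal list as a whole had a median of -0.85 in vehicle, -0.41 at 5 mg and -0.03 at 50 mg. At an unadjusted p under 0.05 in edgeR's test, 4 of its 18 members differed from 50 mg and 1 from vehicle, beside 6.46% and 3.07% of all genes. Acta1 lay lower by -1.70 in vehicle and -1.98 at 5 mg but by -0.28 at 50 mg, a difference between the doses of -1.70 (adjusted p = 0.653) that did not pass.

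Baiap2l1, an adaptor that links membrane curvature to actin, was the 1 gene of 16723 (0.00598%) whose AngII minus sham difference at 5 mg differed from that in vehicle. It stood at 7.08 and 10.5 CPM in AngII and 1.11 and 0.508 CPM in sham at 5 mg (3.45 ± 0.61), and at 0.976 and 3.47 CPM in AngII and 27.8 and 14.1 CPM in sham in vehicle (-3.24). The difference between the differences was 6.69 ± 0.85 (adjusted p = 0.0473 with edgeR's quasi-likelihood test). At 50 mg all 4 libraries stood between 0.850 and 1.5 CPM, and the difference from 50 mg was 3.54 ± 0.83 (adjusted p = 0.307). High levels were thus seen in AngII at 5 mg and in sham in vehicle. The call held in 14 of 24 alternatives, with adjusted p from 3.2e-24 to 0.356. It was lost without sham vehicle number 7 (adjusted p = 0.162), sham 5 mg number 9 (0.124) or number 10 (0.114), or sham 50 mg number 11 (0.0545) or number 12 (0.0607). It was also lost with limma-voom (adjusted p = 0.0643), at least 1 CPM in 6 libraries (0.0628), only the groups compared (0.356), mitochondrial, ribosomal RNA and haemoglobin genes left out (0.0537) and a minimum fold of 1.5 (0.0552). Baiap2l1 overlaps Bri3 on the opposite strand, and reads of the pair cannot be told apart.

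Rpl21, a protein of the large ribosomal subunit, was the 1 gene (0.00598%) whose difference at 5 mg differed from that at 50 mg, by 4.36 ± 0.44 (adjusted p = 0.00373 with edgeR's quasi-likelihood test). At 5 mg it stood at 0.826 and 0.990 CPM in AngII and 1.28 and 1.20 CPM in sham (-0.46 ± 0.31), and the distance came from sham at 50 mg, where it stood at 17.1 and 16.6 CPM. Sham 50 mg number 12 had 10.8% ribosomal RNA counts, and the part of this in differences from 50 mg was not tested. Rpl21 shares exon bases with Gm23202 and Gm25091 and has pseudogene copies, so its level is uncertain. Its adjusted p ranged from 2.42e-15 to 0.0982 over 23 alternatives, and the call was lost in 4 of them, limma-voom (0.0634), log2(TPM + 1) (0.0982) and without sham 50 mg number 11 (0.0674) or number 12 (0.0622).

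Mlxip, a glucose-sensing transcription factor also called MondoA, stood at 12.2 and 6.59 CPM in AngII and 4.63 and 5.25 CPM in sham at 5 mg (0.93 ± 0.35), whereas AngII lay below sham in vehicle (-2.35) and at 50 mg (-2.70). All 4 AngII libraries at the other doses stood between 0.802 and 0.987 CPM. The difference from 50 mg was 3.63 ± 0.51 (adjusted p = 0.0674) and that from vehicle 3.28 ± 0.51 (adjusted p = 0.180), so neither passed in edgeR's test with all 12 libraries. The difference from 50 mg passed in 7 of 24 alternatives and that from vehicle in 4, among them the fit without AngII 5 mg number 4 (adjusted p = 0.00257 and 0.00997), with adjusted p up to 1.0 in others. For Igf2 the AngII minus sham difference was 3.24 in vehicle, 0.65 at 5 mg and -5.31 at 50 mg, and the difference between 5 and 50 mg was 5.97 ± 1.06 (adjusted p = 0.147), which did not pass. It passed in 5 of 24 alternatives, with adjusted p from 7.03e-17 to 0.446, and was 8.93 without AngII 50 mg number 5 (adjusted p = 0.00115). With the reads of the overlapping gene added it was 2.63 (adjusted p = 0.213), and on log2(TPM + 1) it was 2.34.

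Some lists held more members whose difference at 5 mg differed from that at another dose than all genes did, and red cell and matrix genes are described as examples. At an unadjusted p under 0.05, 3.07% of all genes differed from vehicle and 6.46% differed from 50 mg. Of 9 red cell genes 6 differed from vehicle, where the list's median was -0.31, and 1 differed from 50 mg, where it was 2.41. Hba-a2 stood at 257 and 378 CPM in AngII and 445 and 343 CPM in sham in vehicle, and at 425 and 797 against 56.2 and 93.1 CPM at 50 mg. Of 40 collagens and matrix genes 22 differed from 50 mg, where the median was -1.49, and 0 from vehicle, where it was 0.12. Col3a1 stood at 18.3 and 13.6 CPM in AngII and 98.5 and 83.7 CPM in sham at 50 mg, so the sham libraries at 50 mg were the high ones (difference between doses 2.06 ± 0.57, adjusted p = 0.459). Other lists had shares as high or nearly so. Against vehicle 3 of 4 lung, 4 of 11 hepatocyte and 4 of 12 smooth muscle markers differed, and against 50 mg 7 of 12 fibroblast markers, 5 of 14 macrophage markers and 6 of 18 genes of the insulin-like growth factor axis.

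Of 25 genes of the unfolded protein response 5 differed from 50 mg and 1 from vehicle, with medians of 0.04 in vehicle and -0.22 at 50 mg beside 0.47 at 5 mg. At 50 mg the sham libraries were the high ones. The list's median deviation from the mean over 12 libraries was 0.309 and 0.288 in sham and 0.135 and 0.038 in AngII there. At 5 mg it was 0.318 and 0.281 in AngII and -0.35 and -0.244 in sham. Creld2 lay higher by 1.38 at 5 mg, 0.36 in vehicle and -0.04 at 50 mg, and Pdia4 by 1.09, -0.42 and -0.75. No single gene of these lists passed an adjusted p of 0.05 for either difference. For Pdia4 the difference between 5 and 50 mg was 1.85, with an adjusted p of 0.493 from edgeR.

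**Figure D5:**
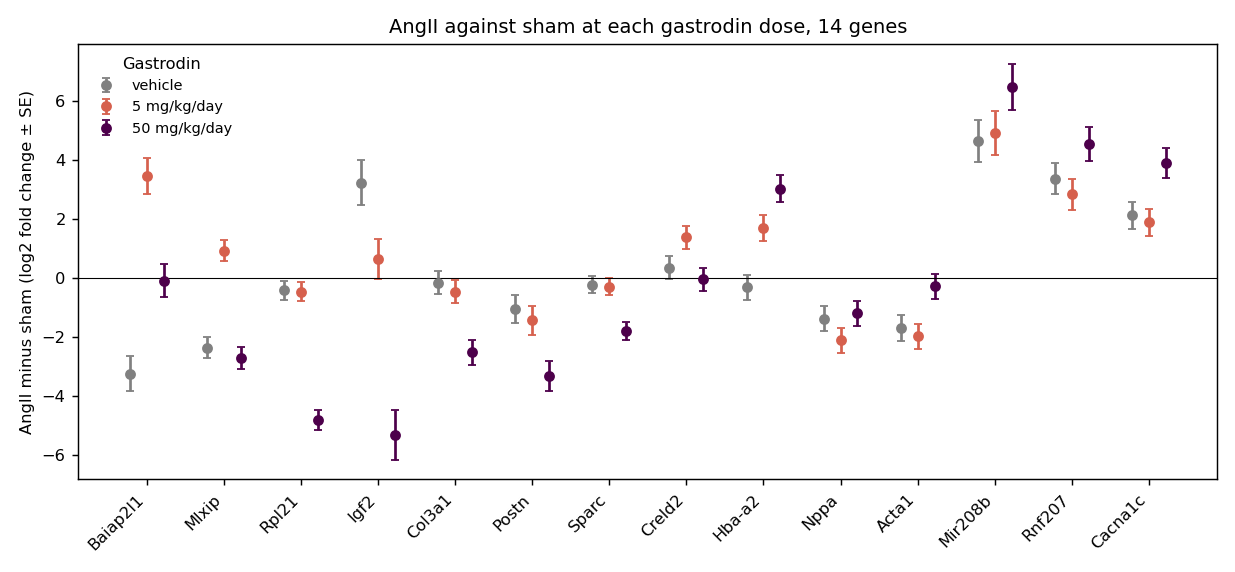
Points give the AngII minus sham log2 fold change with its SE for 14 genes in vehicle (grey), at 5 mg/kg/day (red) and at 50 mg/kg/day (purple), each from 4 libraries. Baiap2l1 and Mlxip lie above 0 at 5 mg alone of the 3, the matrix genes Col3a1 and Sparc lie lowest at 50 mg, and Nppa, Mir208b, Rnf207 and Cacna1c keep their sign at all 3.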

How the data were processed

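The authors deposited a matrix of raw read counts for 27504 genes, without normalisation, and TPM values for 14271 genes; in 12318 genes TPM equals the count times a constant, within 9.2e-10. The submitters' processing notes name HISAT2 2.2.1, StringTie 2.1.3 and the build GRCm38.p6, and the counting program, annotation release and strand are not given in the sources here. Positions and overlaps were taken from GENCODE M21. Counts were fitted in R 4.3.3 with edgeR 4.0.16: filterByExpr (16723 genes), TMM, 1 mean per group over all 12 libraries (6 residual degrees of freedom), the quasi-likelihood F-test, 2-sided, and Benjamini-Hochberg adjustment at 0.05. Each SE is the absolute log2 fold change over the square root of its F statistic. Alternatives used DESeq2 1.42.0 and limma 3.58.1; leaving out libraries 4 and 12 together was chosen after seeing the data. The pipeline was tested on simulated counts of this comparison. Of genes changed 2-fold there 4.48% were called, of those changed 4-fold 49.3% and of those changed 8-fold 97%, with 5 false calls. A gene without a call may thus still differ.

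The rule named the 5 smallest p in each direction, 15 fixed genes, the 2 smallest p per list and called interaction genes, leaving out predicted genes; the text prints some of them, and values of some genes are not reported here. Myh7b, Synpo2l, Fhl1, Trdn, Atp2a2, Furin, Agtr1a, Ace, Serpinh1, Meox1, Timp1, Hsp90b1, Pdia4, Dnajb11, Hspa5, Igfbp3, Igfbp5 and Sparc were picked after their values were seen. The libraries, the 47 gene lists and the rule were chosen with earlier results of these data known.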

Additional observations from a re-analysis of the deposited data

Results flagged for a closer look

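Baiap2l1 was singled out because its AngII minus sham difference at 5 mg differed from that in vehicle, by 6.69 on the log2 scale, and had the opposite sign. Rpl21 was singled out because its difference at 5 mg differed from that at 50 mg, by 4.36 on the log2 scale. In Baiap2l1 both AngII libraries at 5 mg and both sham libraries in vehicle lay high, and in Rpl21 both sham libraries at 50 mg lay high. Both genes overlap other annotated genes, and the part of those genes in the counts was not tested.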

How the results depend on the processing

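No paired analysis was possible because the library numbers run from 1 to 12 and no number is shared between groups. The count of called genes for AngII against sham at 5 mg was 0 and became 277 with the DESeq2 Wald test, 661 with no filter and 912 with AngII 5 mg number 4 and sham 50 mg number 12 left out together. Leaving out single libraries gave 0 to 1187, the highest without AngII 5 mg number 4. The call against vehicle (1 gene) became 14 with DESeq2, 93 with no filter, 2 on TPM, 3 with numbers 4 and 12 left out, and 0 with limma-voom, at least 1 CPM in 6 libraries, only the groups compared, mitochondrial, ribosomal RNA and haemoglobin genes left out, or a minimum fold of 1.5. Single libraries left out gave 0 to 10, the highest without AngII 5 mg number 4. The call against 50 mg (1 gene) became 102 with DESeq2, 197 with no filter, 4 with only the groups compared, 2 with overlapping genes summed, 17 with the nuclear share as a covariate, 6 with numbers 4 and 12 left out, and 0 with limma-voom or at least 1 CPM in 6 libraries. Single libraries left out gave 0 to 21, with 20 without AngII 5 mg number 3, 21 without number 4 and 10 without AngII 50 mg number 5. Of 143 genes followed, 14 turned sign on log2(TPM + 1): Col1a1 (0.438), Col3a1 (0.333), Lmod2 (0.004), Psmd11 (0.061), Atg12 (0.062), Itga2b (0.056), Pf4 (0.404), Mmrn1 (0.022), Rpl21 (0.134), Csrp3 (0.251), Sparc (0.471), Fstl1 (0.068), Agtr1a (0.481) and Fabp4 (0.649). With the nuclear share as a covariate 6 turned: Wt1 (-0.081), Prx (-0.687), Sox10 (-0.631), Flt4 (-0.316), Mylpf (-0.059) and Col6a1 (-0.122). With numbers 4 and 12 left out 3 turned: Col1a1 (0.049), Scgb3a2 (-0.352) and Hspa5 (-0.301). With single libraries left out, the log2 fold change crossed 0 in 16 genes: Col1a1 from -0.327 to 0.069, Col3a1 from -0.827 to 0.057, Junb from -0.442 to 2.22, Zfp36 from -0.136 to 1.865, Csf3r from -0.179 to 2.046, Cidec from -6.893 to 0, Wt1 from -0.156 to 1.808, Prx from -1.58 to 1.934, Sox10 from -1.196 to 1.517, Flt4 from -0.492 to 2.745, Scgb3a2 from -0.351 to 1.627, Mylpf from -0.424 to 7, Cd1d1 from -0.524 to 7.668, Hspa5 from -0.299 to 1.155, Col6a1 from -0.15 to 0.928 and Agtr1a from -0.718 to 0.585. The difference of Igf2 from vehicle turned to 0.878 with overlapping genes summed. The cause of these changes was not tested. The nuclear counts of 4.49 to 15.2 M per library limit the precision of low genes.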
